A study of Mus musculus with 2 samples.

Results

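The genes described here are 10 receptors of the pancreatic islet: Glp1r, Gipr, Gcgr, Ffar1, Ffar4, Sstr2, Sstr3, Ghsr, Galr1 and Adra2a. They were taken by symbol from the list of 27998 genes counted, and all 10 were found there with 1 row each. The study set islets of miR-203 transgenic mice, in which the labels say beta cells carry the transgene (1 library), against islets of wild-type mice (WT, 1 library). Male mice aged 8 weeks were used after a 12 hour fast, and whole islets went into droplet single-cell RNA sequencing with the 10x Genomics 3′ v2 kit. The copy of the transgenic matrix held its first 547 entries, with 782 UMIs (molecule barcodes that count each captured transcript once) and 0 UMIs of these receptors, so every level below is of the WT library. In such data fewer cells that express a gene and less RNA per cell cannot be told apart from a pooled level.

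All 10 receptors signal through heterotrimeric G proteins, and together they let islet cells hear gut hormones, fatty acids, nerves and each other. Glp1r, Gipr and Gcgr bind the incretins GLP-1 and GIP and glucagon, and they raise cyclic AMP through Gs, which strengthens glucose-stimulated insulin release. Ffar1 and Ffar4 bind long-chain fatty acids, Ffar1 acting mainly through Gq. Sstr2 and Sstr3 bind somatostatin from delta cells, Galr1 binds galanin and Adra2a binds noradrenaline and adrenaline, and all 4 couple to Gi and restrain hormone release. Ghsr binds ghrelin and is known in mouse islets as a receptor of delta cells.

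WT barcodes past the UMI minimum of the grouping rule and with at least 500 genes were taken as cells, 4547 in all, the shallowest with 5641 UMIs, and were grouped by the share of their UMIs that came from hormone genes. The delta group (Sst at least 3%) held 137 cells and 1548619 UMIs, the alpha group (Gcg at least 8%) 423 cells and 6951976 UMIs, the PP group (Ppy, pancreatic polypeptide, at least 8%) 117 cells and 2541022 UMIs, and the beta group (Ins1 and Ins2 together at least 30%) 3258 cells and 83202673 UMIs. A further 549 cells passed no limit and form the no-hormone group, and 63 that passed several limits were kept apart. Median depth was 9020 UMIs per cell in the delta, 15015 in the alpha, 21063 in the PP and 23414 in the beta group. Between 12 (delta) and 238 (beta) cells lay within 20% above a limit, and between 24 (delta, PP) and 136 (beta) within 20% below it. Of marker genes not used for grouping, 5 of 7 delta markers, 6 of 8 alpha markers and 8 of 9 beta markers were highest in their own group. Only 2 of 5 PP markers were (Pyy and Vsig1), Aqp3 and Ptgdr had 0 UMIs there, and that group also carried erythroid marker RNA at 2529 counts per 1000000 UMIs (CPM), against 20.1 to 27.1 CPM in the delta, alpha and beta groups. Its part in the PP values was not tested.

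Levels are pooled CPM over the cells of a group, with exact 95% Poisson intervals in parentheses that cover counting error only. With 1 library there is no replicate, so nothing here was tested and no p-value is given. Droplets of at most 200 UMIs hold free RNA released by broken cells, and each group was given a free RNA ceiling for each gene: the level that free RNA would give if all of another cell type's hormone in the group were free RNA, taking the hormone that gives the smallest share. By that reckoning at most 15.7% of the RNA in the delta, 9.51% in the alpha, 14.8% in the PP and 9.65% in the beta group was free. A receptor was read as above free RNA in a group if it had at least 10 UMIs there and the lower bound of its level passed the ceiling. As a further yardstick, 95 no-hormone cells with at least 0.5% macrophage marker UMIs (median depth 10436 UMIs, 3.97% insulin) were measured the same way.

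Of 40 pairs of a receptor and a hormone group, 23 stood above free RNA and 17 were too low to read. With the hormone that gives the largest share instead, 14 pairs stood above it, and those left outside beta cells were Ffar4 and Ghsr in delta cells and Ffar4 and Sstr2 in alpha and PP cells. The delta group had 4 of 10 receptors above free RNA, against 58.0% of all 15490 genes with at least 10 UMIs, and the alpha group 6 of 10, against 72.4% of all genes. The PP group had 5 of 10, against 59.0%, and the beta group 8 of 10, against 86.3%. The receptors' shares were at or below those of all genes, so the counts are not a result about these receptors. Of the 23 pairs, 17 also stood higher than in the macrophage-marker cells beyond counting error. The 6 that did not were Ffar1 and Adra2a in the alpha and PP groups, and Ffar4 and Glp1r in the beta group. Apart from Glp1r, those levels are not read as expression here. For Glp1r this yardstick cannot decide, because 0 UMIs in macrophage-marker cells leave an upper bound of 3.41 CPM, above the beta level of 0.589 CPM. Against endothelial-marker cells 17 pairs also stood higher, but not the same ones. Gipr in alpha cells did not, while Ffar1 in PP cells did (ratio 4.80, 1.22 to 41.4). The share of all genes was not worked out for the largest-share ceiling or for either set of marker cells. Those counts are likewise not read as a result about these receptors.

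**Figure D1:**
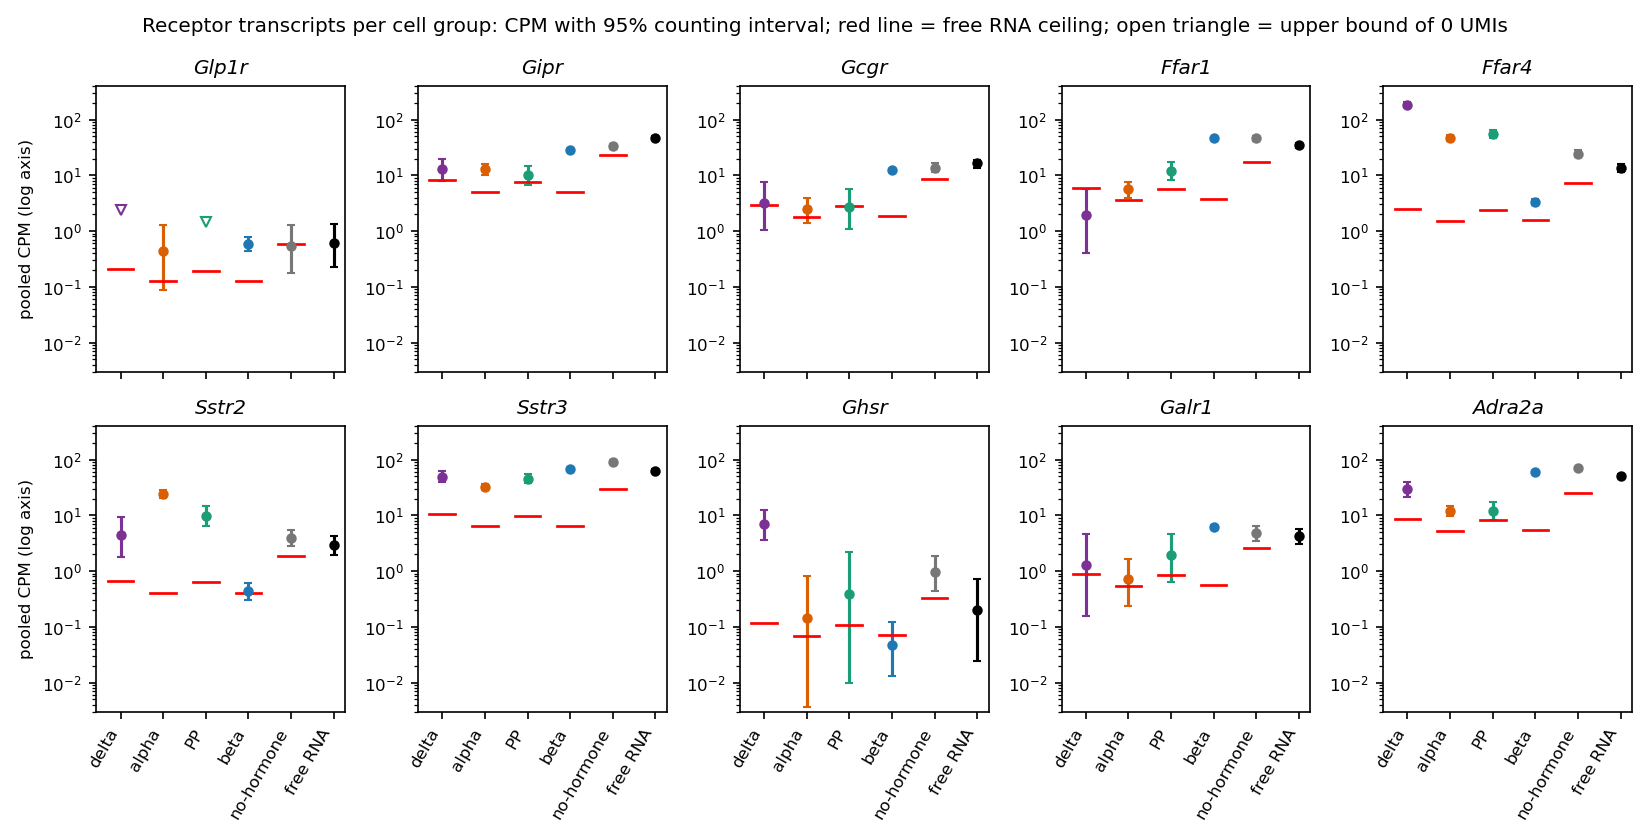
Pooled CPM of each receptor (log axis) in the delta, alpha, PP, beta and no-hormone groups and in free RNA, with 95% counting intervals; red lines mark the free RNA ceiling of each group and open triangles the upper bound where no UMI was seen. Ffar4 peaks in the delta group at 186 CPM, Sstr2 in the alpha group at 24.0 CPM, and Ffar1 at 47.0 CPM in the beta group.

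Among the receptors of incretins and glucagon, Gipr and Gcgr stood highest of the 4 hormone groups in beta cells, while Glp1r was barely counted. Gipr (chr7:19156061-19166127, minus strand, GRCm38) stood at 12.9 CPM (7.89 to 19.9, 20 UMIs) in delta, 12.8 CPM (10.3 to 15.8) in alpha, 10.2 CPM (6.68 to 15) in PP and 28.7 CPM (27.6 to 29.9, 2391 UMIs) in beta cells. The alpha and beta levels cleared their ceilings of 4.92 and 4.99 CPM, and both were above the 3.70 CPM of macrophage-marker cells. The alpha level was not above that of the 94 endothelial-marker cells beyond counting error (6.35 CPM, ratio 2.01, 0.832 to 6.36). In delta and PP cells the ceilings of 8.11 and 7.65 CPM lay inside the interval, so Gipr is too low to read there, although its delta level was 3.49 times (1.17 to 14.0) that of macrophage-marker cells and 2.03 times (0.74 to 6.93) that of endothelial-marker cells.

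Gcgr, the receptor through which beta cells sense glucagon from their alpha neighbours (chr11:120530699-120538986, plus strand), was read in beta cells alone among the hormone groups. It stood at 3.23 CPM (1.05 to 7.53, 5 UMIs) in delta, 2.45 CPM (1.42 to 3.92, 17 UMIs) in alpha, 2.75 CPM (1.11 to 5.68, 7 UMIs) in PP and 12.4 CPM (11.6 to 13.2, 1030 UMIs) in beta cells. The beta level passed a ceiling of 1.83 CPM and was 2.68 times (1.14 to 8.26) that of macrophage-marker cells. Delta and PP cells, and PP and alpha cells, did not differ beyond counting error.

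Glp1r, the GLP-1 receptor and target of incretin drugs (chr17:30901817-30940791, plus strand), gave 57 UMIs in all 4547 cells. It had 0 UMIs in delta cells, 3 in alpha cells (0.432 CPM, 0.0890 to 1.26), 0 in PP cells and 49 in beta cells (0.589 CPM, 0.436 to 0.779). The exact upper bounds of a count of 0 were 2.38 CPM in delta and 1.45 CPM in PP cells, so a level like that of beta cells is not excluded in either. The beta level passed its ceiling of 0.128 CPM but could not be told from macrophage-marker cells, which had 0 UMIs of a much smaller total. In the GENCODE M21 annotation Glp1r has the longest 3′ untranslated region of the 10 genes, at 4362 bases, and 2 genes overlap it on the opposite strand. The kit captures transcript ends, the annotation used for counting is not given in the sources used here, and the part of either in the low count was not tested.

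The fatty acid receptors were split between cell types, with Ffar1 highest in beta cells and Ffar4 highest in delta cells. Ffar1 (chr7:30857390-30861564, minus strand, 1 exon) stood at 1.94 CPM (0.399 to 5.66, 3 UMIs) in delta, 5.61 CPM (3.99 to 7.67) in alpha, 12.2 CPM (8.29 to 17.3) in PP and 47.0 CPM (45.5 to 48.5, 3911 UMIs) in beta cells. The beta level was 3.63 times (2.16 to 6.65) that of macrophage-marker cells, which stood at 12.9 CPM (7.08 to 21.7). Alpha and PP cells cleared their ceilings of 3.63 and 5.65 CPM but were not above the macrophage-marker cells, and delta cells lay below their ceiling of 5.99 CPM. The PP level was above that of endothelial-marker cells (2.54 CPM on 2 UMIs, ratio 4.80, 1.22 to 41.4).

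Ffar4 (chr19:38097071-38114263, plus strand, 3 exons) stood at 186 CPM (165 to 209, 288 UMIs) in delta, 46.5 CPM (41.5 to 51.8, 323 UMIs) in alpha, 54.7 CPM (46.0 to 64.6, 139 UMIs) in PP and 3.33 CPM (2.95 to 3.75, 277 UMIs) in beta cells. The level in delta cells was 4.0 times (3.40 to 4.71) that in alpha cells. PP and alpha cells did not differ beyond counting error (ratio 1.18, 0.958 to 1.44). Scaled by their somatostatin, delta cell RNA in the alpha and PP groups would carry 3.60 and 6.73 CPM of Ffar4. Doublets were not called, and their part was not tested. In beta cells the level differed with the other hormones. It stood at 25.5 CPM (19.8 to 32.3) in the 88 beta cells whose Gcg, Sst and Ppy made up at least 1% of UMIs, against 2.41 CPM (2.08 to 2.78) in the 3002 with under 0.5%.

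The promoters of the 4 genes that differed most between the groups are given because 2 of them (Ffar4 and Ghsr) peak in delta cells, 1 (Sstr2) in alpha cells and 1 (Ffar1) in beta cells. They are RefSeq sequences of GRCm38.p6 on each gene's own strand, running from before the transcript start to shortly after it. A promoter was found for 8 of the 10 receptors. Capitals mark matches to any of 5 motifs, searched on both strands: CAGATG (an E-box bound by NeuroD1), TGCTGAC (the core bound by large Maf factors), TGACGTCA (the cyclic AMP response element), TAATTA (homeodomain factors) and TGTTTAC (forkhead factors). Galr1 and Gipr had no entry. The first region is chr19:38096829-38097128 (plus), the next chr3:27371101-27371400 (plus), then chr11:113619077-113619376 (plus) and chr7:30861421-30861720 (minus).
Ffar4: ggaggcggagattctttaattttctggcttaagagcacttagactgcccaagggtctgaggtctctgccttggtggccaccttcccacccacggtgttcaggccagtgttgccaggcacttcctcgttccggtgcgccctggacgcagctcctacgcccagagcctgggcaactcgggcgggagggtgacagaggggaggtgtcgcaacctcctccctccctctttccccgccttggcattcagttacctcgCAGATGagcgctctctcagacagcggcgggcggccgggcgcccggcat
Ghsr: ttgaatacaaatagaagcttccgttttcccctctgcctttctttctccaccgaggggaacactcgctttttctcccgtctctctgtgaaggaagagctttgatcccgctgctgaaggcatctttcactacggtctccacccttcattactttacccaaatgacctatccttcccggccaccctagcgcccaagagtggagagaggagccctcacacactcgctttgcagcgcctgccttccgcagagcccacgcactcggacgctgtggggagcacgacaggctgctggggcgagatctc
Sstr2: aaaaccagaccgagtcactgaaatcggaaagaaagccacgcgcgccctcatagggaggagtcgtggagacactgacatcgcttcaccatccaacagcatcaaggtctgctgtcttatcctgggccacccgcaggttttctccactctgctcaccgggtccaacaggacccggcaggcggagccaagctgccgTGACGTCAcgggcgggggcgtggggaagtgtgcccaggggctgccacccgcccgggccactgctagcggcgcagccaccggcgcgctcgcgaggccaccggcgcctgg
Ffar1: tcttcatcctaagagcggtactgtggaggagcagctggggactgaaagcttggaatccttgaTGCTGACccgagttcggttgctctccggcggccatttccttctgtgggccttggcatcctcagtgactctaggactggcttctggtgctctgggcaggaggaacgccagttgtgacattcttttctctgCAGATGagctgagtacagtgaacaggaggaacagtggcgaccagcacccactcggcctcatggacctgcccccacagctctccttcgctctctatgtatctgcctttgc
CAGATG was found in Ffar4 and Ffar1 and, among the promoters not printed, in Sstr3, and 17.2% of 27025 mouse promoters of this length hold it. TGCTGAC was found in Ffar1 alone of the 8, and 4.58% of promoters hold it. TGACGTCA, which reads the same on both strands, was found in Sstr2 alone, and 1.88% of promoters hold it. The Ghsr window held none of the 5, and TAATTA (5.31% of promoters) and TGTTTAC (3.55%) were in none of the 8 genes' first promoters. A match describes these letters and is not evidence of binding.

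The somatostatin receptors differed in how widely they were seen. Sstr2 was seen mainly in alpha cells and Sstr3, by the smallest-share ceiling, in all 4 hormone groups. Sstr2 (chr11:113619342-113626028, plus strand) stood at 4.52 CPM (1.82 to 9.31, 7 UMIs) in delta, 24.0 CPM (20.5 to 28.0, 167 UMIs) in alpha, 9.84 CPM (6.37 to 14.5, 25 UMIs) in PP and 0.433 CPM (0.303 to 0.599, 36 UMIs) in beta cells. Alpha and PP cells cleared their ceilings of 0.403 and 0.625 CPM, beta cells did not pass theirs of 0.408 CPM, and 7 UMIs in delta cells were too few to read. Beta cells with at least 1% of other hormones held 4.88 CPM (2.60 to 8.34, 13 UMIs), against 0.298 CPM (0.189 to 0.447) in those with under 0.5%. The gene Slc39a11 overlaps Sstr2 on the opposite strand, and whether counting used strand is not given in the sources used here.

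Sstr3 (chr15:78537008-78544685, minus strand) stood at 49.7 CPM (39.2 to 62.1, 77 UMIs) in delta, 32.7 CPM (28.5 to 37.2) in alpha, 45.7 CPM (37.7 to 54.8) in PP and 69.1 CPM (67.3 to 70.9, 5750 UMIs) in beta cells. All 4 cleared their ceilings, which lay between 6.37 and 10.5 CPM, and all 4 stood above macrophage-marker cells, by 1.77 times (1.12 to 2.95) in alpha and 2.69 times (1.63 to 4.64) in delta cells. Macrophage-marker cells gave 18.5 CPM (11.3 to 28.6, 20 UMIs), of which 5 UMIs lay in 1 cell. The alpha lower bound of 28.5 CPM lay under that upper bound of 28.6 CPM. With the hormone that gives the largest share, Sstr3 passed its ceiling in beta cells alone among the 4 hormone groups. Delta and PP cells did not differ beyond counting error (ratio 1.09, 0.806 to 1.47).

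Among the receptors of ghrelin, galanin and catecholamines, Ghsr was read in delta cells and Galr1 in beta cells. Adra2a was read in beta cells and, by the smallest-share ceiling only, in delta cells. Ghsr (chr3:27371351-27378010, plus strand) stood at 7.10 CPM (3.55 to 12.7, 11 UMIs in 11 cells) in delta, 0.144 CPM (0.00364 to 0.801, 1 UMI) in alpha, 0.394 CPM (0.00996 to 2.19, 1 UMI) in PP and 0.0481 CPM (0.0131 to 0.123, 4 UMIs) in beta cells. The delta level was the only one of the 4 read as above free RNA, with a ceiling of 0.115 CPM. The 28 UMIs of Ghsr in all cells make it the least counted of the 10.

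Galr1 (on chromosome 18) stood at 1.29 CPM (0.156 to 4.67, 2 UMIs) in delta, 0.719 CPM (0.234 to 1.68, 5 UMIs) in alpha, 1.97 CPM (0.639 to 4.59, 5 UMIs) in PP and 6.17 CPM (5.64 to 6.72, 513 UMIs) in beta cells. Macrophage-marker cells had 0 UMIs, and the beta level cleared a ceiling of 0.557 CPM. The other 3 hormone groups were too low to read.

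Adra2a, the alpha-2A adrenergic receptor (chr19:54044151-54048982, plus strand), stood at 29.1 CPM (21.2 to 38.9, 45 UMIs) in delta, 12.1 CPM (9.64 to 15) in alpha, 12.2 CPM (8.29 to 17.3) in PP and 59.9 CPM (58.2 to 61.6, 4983 UMIs) in beta cells. Delta and beta cells stood 2.09 times (1.15 to 4.05) and 4.32 times (2.62 to 7.72) above macrophage-marker cells, which gave 13.9 CPM (7.76 to 22.9). The delta lower bound of 21.2 CPM lay under that upper bound of 22.9 CPM. With the hormone that gives the largest share, the delta level did not pass its ceiling. Insulin made up 5.33% of UMIs in delta and 3.97% in macrophage-marker cells, so the yardstick is not matched for beta cell RNA. Alpha and PP cells cleared their ceilings of 5.33 and 8.27 CPM but lay at 0.871 times (0.499 to 1.63) and 0.880 times (0.461 to 1.75) the macrophage-marker level. Of the 84 UMIs in alpha cells, 11 lay in 1 cell.

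Set against beta cells, Ffar4 stood higher in the other 3 hormone groups and Sstr2 in alpha and PP cells, while Gipr, Gcgr, Ffar1, Sstr3, Galr1 and Adra2a stood lower. A receptor was compared if it had at least 5 CPM in either group and 20 UMIs in both together. The median of all compared genes stood at log2 0.84 in delta over beta, 0.38 in alpha over beta and 0.27 in PP over beta, so ratios are also given relative to that gene. Hormone and mitochondrial RNA took 25.4% of UMIs in delta, 31.4% in alpha, 46.7% in PP and 59.9% in beta cells, and with it left out of the totals the medians were -0.09, -0.44 and -0.17.

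In delta over beta cells, 1 of 7 compared receptors lay over 2-fold higher, against 39.8% of 9809 genes, and 5 lay over 2-fold lower, against 2.31% of genes. Relative to the median gene the split was 1 higher (9.90% of genes) and 6 lower (8.30%). Ffar4 stood at log2 5.80 (5.56 to 6.05), or 4.96 relative to the median gene, and Ffar1 at -4.60 (-6.88 to -3.05), or -5.44. Ffar4, at 3.33 CPM in beta cells, passed the 5 CPM limit through delta cells alone, so that limit let it stand only on the higher side. The Ffar1 value rests on 3 UMIs in delta cells, and those of Gcgr and Galr1, also among the lower ones, on 5 and 2. Each passed the 5 CPM limit through beta cells alone, so that limit let them stand only on the lower side. The delta level of Gipr, also among the lower ones, was too low to read. The Sstr3 call depended on the scale, at log2 -0.47 (-0.82 to -0.15) in CPM and -1.32 relative to the median gene. Adra2a, at -1.04 (-1.50 to -0.62), lay under 2-fold when cells of at least 10000 UMIs alone were used (-0.65) and when cells past several limits were given to the first group passed (-0.99), which left 4 lower. Ghsr had too few UMIs to be counted in this comparison, with 11 against 4, a ratio of 148 (43.8 to 636). Sstr2 lay under 5 CPM in both groups and was not counted either. It stood at 4.52 against 0.433 CPM, a ratio of 10.4 (3.92 to 23.8), on 7 UMIs in delta cells.

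In alpha over beta cells, 2 of 8 receptors lay over 2-fold higher (15.2% of 9035 genes) and 6 over 2-fold lower (4.99% of genes), with the same numbers relative to the median gene, where 8.27% and 8.58% of genes lay as far. Sstr2 stood at log2 5.79 (5.27 to 6.36) and Ffar4 at 3.80 (3.57 to 4.04). Both passed the 5 CPM limit through alpha cells alone (0.433 and 3.33 CPM in beta cells), so that limit let them stand only on the higher side. The lower ones ran from Sstr3 at -1.08 (-1.28 to -0.89) and Gipr at -1.17 (-1.49 to -0.86) through Adra2a at -2.31 (-2.64 to -2.0) and Gcgr at -2.34 (-3.13 to -1.65) to Ffar1 at -3.07 (-3.56 to -2.61) and Galr1 at -3.10 (-4.73 to -1.87). Free RNA was not taken off these levels. Gcgr (2.45 CPM) and Galr1 (0.719 CPM) were too low to read in alpha cells and passed the 5 CPM limit through beta cells alone. The alpha levels of Ffar1 and Adra2a are not read as expression here.

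In PP over beta cells, 2 of 8 lay over 2-fold higher (11.5% of 8998 genes) and 5 lower (4.80%), and the numbers held relative to the median gene (7.12% and 7.45%). Sstr2 stood at log2 4.51 (3.71 to 5.28), Ffar4 at 4.04 (3.73 to 4.34) and Sstr3 at -0.60 (-0.88 to -0.33). Sstr2 and Ffar4 passed the 5 CPM limit through PP cells alone, so that limit let them stand only on the higher side. Gipr (10.2 CPM), Gcgr (2.75 CPM) and Galr1 (1.97 CPM), among the lower ones, were too low to read in PP cells. Gcgr and Galr1 passed the 5 CPM limit through beta cells alone. The other lower ones were Ffar1 and Adra2a, whose PP levels are not read as expression here. In delta over alpha cells, 2 of 6 receptors were higher (16.5% of 9754 genes) and 2 lower (2.32%), against 1 higher (7.13%) and 2 lower (5.20%) relative to the median gene, which stood at 0.46. Adra2a, at log2 1.27 (0.71 to 1.81) or 0.81 relative to it, lost its call. Ffar1, on 3 UMIs in delta cells, stood at -1.53 (-3.87 to 0.12), and at -0.58 with at least 10000 UMIs per cell. Sstr2 stood at -2.41 (-3.75 to -1.34) and Ffar4 at 2.00 (1.77 to 2.23). Sstr2 and Ffar1, the 2 lower ones, passed the 5 CPM limit through alpha cells alone (4.52 and 1.94 CPM in delta cells). That limit let them stand only on the lower side.

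**Figure D2:**
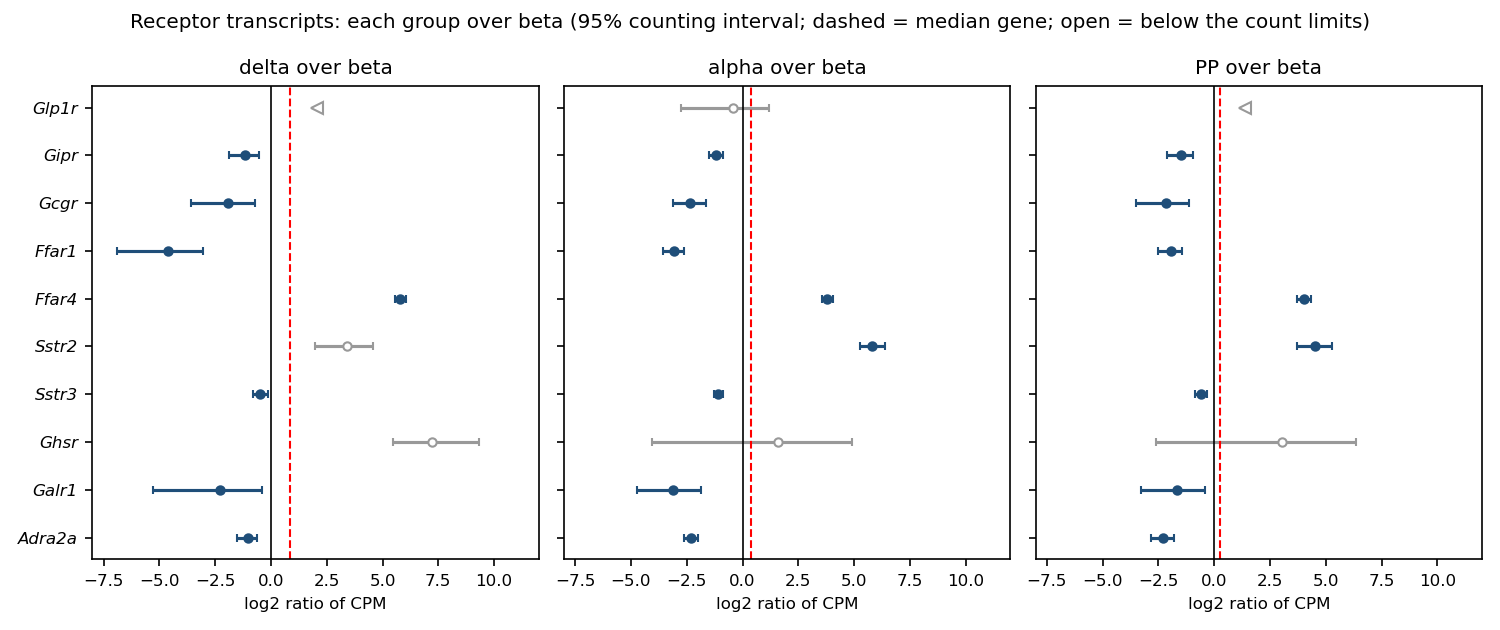
Log2 ratio of pooled CPM of each receptor in the delta, alpha and PP groups, each over the beta group, with 95% counting intervals; the dashed line is the median gene and open symbols mark receptors below the limits on counts and triangles upper bounds where no UMI was seen. Ffar4 lies between 3.80 and 5.80 in all 3 comparisons, while Ffar1, Gcgr, Galr1 and Adra2a lie below 0 in each.

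To compare shares of cells at 1 depth, every cell was thinned to the UMI minimum. Ffar4 was seen in 62.0% of delta cells (exact binomial 53.4 to 70.2), 20.8% of alpha cells (17.0 to 25.0), 23.1% of PP cells (15.8 to 31.8) and 1.96% of beta cells (1.52 to 2.50), against 1.05% (0.0266 to 5.73) in macrophage-marker cells. Sstr2 was seen in 11.6% of alpha cells (8.69 to 15) and in 0.246% of beta cells (0.106 to 0.483), and Ghsr in 5.11% of delta cells (2.08 to 10.2). In beta cells the thinned shares were 31.8% for Sstr3, 27.9% for Adra2a, 22.7% for Ffar1, 14.1% for Gipr, 7.09% for Gcgr, 3.50% for Galr1 and 0.307% for Glp1r. The macrophage-marker cells gave 10.5% for Sstr3, 8.42% for Adra2a, 4.21% for Ffar1, 1.05% for Gipr and 0% for Galr1 and Glp1r (upper bound 3.81%). For Gcgr they gave 3.16% (0.656 to 8.95), an interval that covers the beta share, and the bound of 3.81% likewise covers the beta shares of Galr1 and Glp1r. Without thinning, 83.9% of delta cells held an Ffar4 UMI, and 77.2%, 67.9% and 62.2% of beta cells held Sstr3, Adra2a and Ffar1.

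The share of cells with a UMI was also set against the share that an even spread of the UMIs over cells would give. If each beta cell had the same level, 8.10% of them would hold an Ffar4 UMI at their own depths, and 6.35% did, with up to 7 UMIs in a cell. In delta cells the even share was 83.3% and the measured one 83.9%. For Sstr2 in alpha cells it was 32.0%, against 26.5% measured, and for Adra2a in beta cells 75.1%, against 67.9% measured, with up to 16 UMIs in a cell. For Gcgr (26.6% even, 26.1% measured) and Galr1 (14.4% and 14.0%) in beta cells the shares lay close. At least 3 UMIs of them were held by 16 and 5 of the 3258 beta cells, so at these low counts the closeness says little about evenness.

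**Figure D3:**
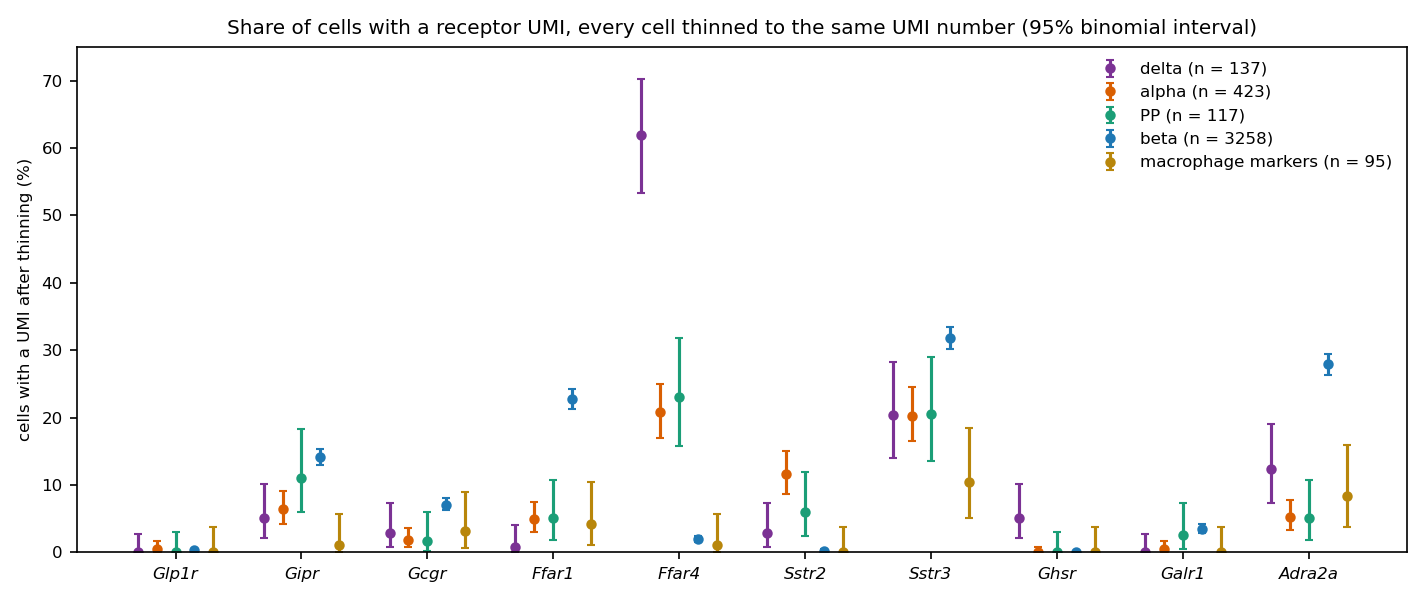
Share of cells with at least 1 UMI of each receptor in the delta, alpha, PP and beta groups and in macrophage-marker cells, after every cell was thinned to 1 common depth, with 95% binomial intervals. Ffar4 in delta cells (62.0%) stands highest, and Glp1r lies under 0.5% in every group shown.

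Receptor levels were next followed over the insulin share of cells, taking beta cells and the no-hormone cells without macrophage or endothelial markers together, in bands from under 5% (72 cells) to 60% and over (391 cells). Levels here are per 1000000 UMIs other than hormone and mitochondrial ones, because a higher insulin share lowers the CPM of other genes by arithmetic. Gipr stood at 16.2 (9.25 to 26.3) under 5% insulin, 37.8 (26.6 to 52.0) at 5 to 15%, 79.2 (69.6 to 89.7) at 15 to 30%, and between 69.4 and 78.1 in the 3 bands above. Ffar1 likewise stood at 22.2 (13.9 to 33.7), 54.1 (40.5 to 70.8) and 109 (97.5 to 121), and between 112 and 127 in the bands above 30%. Gcgr stood at 6.07 (2.23 to 13.2) in the lowest and 36.7 (30.9 to 43.3) in the highest band.

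Sstr3 and Adra2a peaked in the middle bands. Sstr3 was at 206 (191 to 223) at 15 to 30% insulin, 170 (165 to 176) at 45 to 60% and 149 (137 to 162) at 60% and over. Adra2a was at 163 (149 to 178), 152 (147 to 158) and 98.7 (89.0 to 109) in the same bands. Ffar4 ran the other way, at 64.7 (49.8 to 82.7) under 5%, 74.5 (58.4 to 93.7) at 5 to 15%, 27.7 (22.1 to 34.2) at 15 to 30% and 5.73 (3.59 to 8.67) at 60% and over. Marker RNA of other cells moved with these bands. Under 5% insulin the summed erythroid markers (5 genes) stood at 22351 CPM and the stellate markers (6 genes) at 504 CPM, against 19.4 to 24.3 CPM and 2.79 to 9.99 CPM in the bands above. Endothelial markers (6 genes) stood at 535 CPM and macrophage markers (6 genes) at 361 CPM under 5%, against 14.1 to 56.9 CPM and 86.7 to 153 CPM above. The sum of 7 delta markers stood at 1350 CPM under 5%, 1087 CPM at 5 to 15%, 361 CPM at 15 to 30% and 38.7 to 114 CPM above, and that of 8 alpha markers at 7363, 4832, 2741 and 1501 to 1737 CPM. The sum of 5 PP markers stood at 21750, 18284, 4825 and 398 to 1130 CPM in the same bands. The part of all these markers in the receptor levels was not tested. Depth also differed between the bands, with a median of 34322 UMIs per cell at 60% and over and 23414 at 45 to 60%, and its part was not tested. With beta cells split by depth into 3 sets of 1086 cells, Adra2a stood at 164, 163 and 131 from the shallow to the deep set. Sstr3 stood at 199, 180 and 152 and Ffar1 at 112, 110 and 126.

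**Figure D4:**
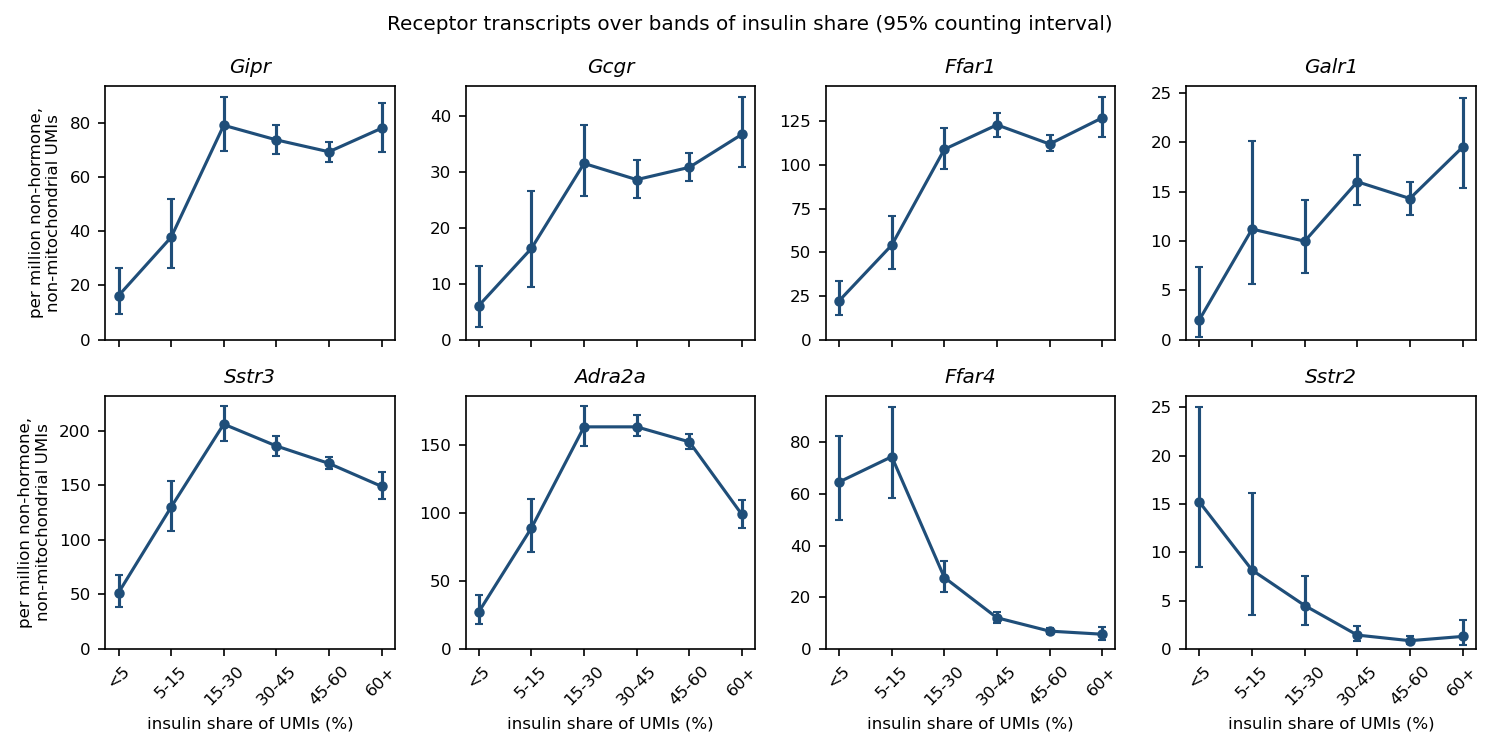
Receptor UMIs per 1000000 non-hormone, non-mitochondrial UMIs over bands of the insulin share of cells, with 95% counting intervals, in beta cells and no-hormone cells outside the macrophage-marker and endothelial-marker sets. Gipr lies between 69.4 and 79.2 from 15% insulin up, Adra2a is lower at 60% and over (98.7) than at 45 to 60% (152), and Ffar4 and Sstr2 are highest below 15%.

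The no-hormone group held 95 macrophage-marker cells, 94 endothelial-marker cells (at least 0.5% of UMIs) and 360 others, and the receptors lay mostly in the last. Any cell past both marker limits was counted among the others. Among the 360 others Sstr3 stood at 111 CPM (103 to 118), Adra2a at 83.8 CPM (77.3 to 90.6), Ffar1 at 55.8 CPM (50.5 to 61.4) and Gipr at 40.4 CPM (35.9 to 45.2). In endothelial-marker cells the same 4 receptors stood at 8.90, 11.4, 2.54 and 6.35 CPM, on 2 to 9 UMIs each. The group as a whole had 8 of 10 receptors above free RNA, against 81.2% of all genes, with a ceiling of 44.7% free RNA.

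Free RNA itself carried these receptors in other proportions than beta cells. The beta over free ratio of CPM was 0.608 (0.551 to 0.673) for Gipr, with 28.7 CPM in beta cells and 47.2 CPM in free RNA. It was 1.37 (1.22 to 1.53) for Ffar1, 1.17 (1.06 to 1.28) for Adra2a, 1.12 (1.03 to 1.22) for Sstr3 and 1.44 (1.05 to 2.03) for Galr1. The median of 11056 genes with at least 20 free UMIs was 0.791. No hormone group reached the free RNA level of Gipr.

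Lists of genes around these receptors were described in the same comparisons. Of 51 other receptors known in islets, 14 were counted in delta over beta cells, with 4 over 2-fold higher and 5 lower (39.8% and 2.31% of all genes). In alpha over beta cells 17 were counted, with 7 higher and 6 lower (15.2% and 4.99% of all genes). Relative to the median gene the counts were 3 and 6 in delta over beta cells (9.90% and 8.30% of all genes). In alpha over beta cells they were 6 and 6 (8.27% and 8.58%). Median log2 ratios were -0.11 and 0.44, against 0.84 and 0.38 for all genes. In delta over beta cells the highest were Gprc5b, an orphan receptor (10.3 against 0.421 CPM), and Oxtr, the oxytocin receptor (16.8 against 1.62 CPM). The lowest were Gabbr2, a subunit of the GABA-B receptor (0 against 574 UMIs), and Chrm3, the muscarinic M3 receptor (0.646 against 9.54 CPM). Their delta levels lie under their free RNA ceilings of 1.44 and 1.16 CPM and are too low to read. In alpha over beta cells the highest were Avpr1b, a vasopressin receptor (5.61 against 0.0601 CPM), and Adrb1, the beta-1 adrenergic receptor (6.90 against 0.0962 CPM). Their beta levels rest on 5 and 8 UMIs and are too low to read. They passed the 5 CPM limit through alpha cells alone, as Gprc5b and Oxtr did through delta cells. The lowest were the prolactin receptor Prlr (4.17 against 76.0 CPM) and Gpr158 (1.87 against 22.6 CPM), whose alpha levels lie under their free RNA ceilings.

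Downstream of the receptors, 14 of 16 G protein subunit genes were counted in both comparisons. In delta over beta cells 7 were over 2-fold higher and 0 lower (median log2 0.91), near the 39.8% and 2.31% of all genes. Relative to the median gene 1 was higher and 1 lower (9.90% and 8.30% of all genes). In alpha over beta cells 2 were higher and 1 lower (0.51), against 15.2% and 4.99% of all genes, and 2 and 2 relative to the median gene (8.27% and 8.58%). Gnas, which encodes the stimulatory subunit that the incretin and glucagon receptors use, stood at 1949 CPM in delta, 1785 CPM in alpha and 449 CPM in beta cells. Gnai1, an inhibitory subunit, stood at 38.6 CPM in alpha against 9.24 CPM in beta cells, and was with Gnas the highest in that comparison. Gnb2, a beta subunit, was the other highest in delta cells, at 378 CPM against 140 CPM in beta cells. The lowest in alpha cells were Gng12, a gamma subunit (41.0 against 151 CPM), and the inhibitory subunit Gnai2 (170 against 271 CPM). In delta cells they were Gng12 (96.9 against 151 CPM) and Gna11, which acts on phospholipase C (60.7 against 55.7 CPM). Relative to the median gene, Gnas lay at log2 1.28 in delta over beta and 1.61 in alpha over beta cells.

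Of 25 genes of the cyclic AMP pathway, 6 of 19 counted were over 2-fold higher and 0 lower in delta over beta cells (median 0.79, with 39.8% and 2.31% of all genes). Relative to the median gene 3 were higher and 2 lower (9.90% and 8.30% of all genes). In alpha over beta cells 3 of 17 were higher and 1 lower (median 0.31, with 15.2% and 4.99% of all genes). Relative to the median gene 1 was higher and 2 lower (8.27% and 8.58% of all genes), and Crem lay at 0.97. Pde4d, a phosphodiesterase that breaks down cyclic AMP, stood at 32.9 CPM in delta, 25.5 CPM in alpha and 3.57 CPM in beta cells. Rapgef3, the cyclic AMP sensor Epac1, stood at 8.39 CPM in delta (13 UMIs) against 0.30 CPM in beta cells, where 25 UMIs were too low to read. Pde4d and Rapgef3 lay under 5 CPM in beta cells, so that limit let them stand only on the higher side. Prkar2b, a regulatory subunit of protein kinase A, stood at 4.60 CPM in alpha, 11 CPM in delta and 17.8 CPM in beta cells. The others at the ends of the list were Crem, a cyclic AMP responsive transcription factor (33.2 CPM in alpha against 13.0 CPM in beta cells), the phosphodiesterase Pde4b (5.90 against 9.51 CPM in the same groups) and the adenylyl cyclase Adcy9 (11.6 CPM in delta against 14.3 CPM in beta cells). Of 27 regulators and effectors, 9 of 19 were higher and 2 lower in delta over beta cells, against 39.8% and 2.31% of all genes. Relative to the median gene 4 were higher and 4 lower (9.90% and 8.30% of all genes). In alpha over beta cells 3 of 18 were higher and 2 lower (15.2% and 4.99% of all genes), or 2 and 4 relative to the median gene (8.27% and 8.58%). Ramp1, which partners calcitonin-family receptors, stood at 192 CPM in delta against 17.0 CPM in beta cells, and Itpr1, a calcium release channel, at 101 CPM in delta, 54.4 CPM in alpha and 9.27 CPM in beta cells. Rgs4, which speeds the switching off of G proteins, stood at 112 CPM in alpha against 24.3 CPM in beta cells. The lowest were Itpr2, a relative of Itpr1 (2.58 CPM in delta, 2.16 CPM in alpha and 8.22 CPM in beta cells), the receptor kinase Grk5 (3.23 CPM in delta against 9.66 CPM in beta cells) and Rgs16 (10.2 CPM in alpha against 24.0 CPM in beta cells). The delta levels of Itpr2 and Grk5 rest on 4 and 5 UMIs and are too low to read. Of 9 genes that make the receptors' ligands, 3 were counted in each comparison. Gcg and Sst, which define groups here, were the highest, and Th, an enzyme of catecholamine synthesis, was lowest at 4.52 CPM in delta, 3.74 CPM in alpha and 20 CPM in beta cells. The delta level of Th rests on 7 UMIs and is too low to read.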

How the data were processed

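The deposited files hold raw UMI counts for each gene in each droplet barcode, by their headers, with no scaling or cell filter. Per the labels, libraries were made with the 10x Genomics 3′ v2 kit. The labels' extraction texts also describe total RNA from frozen islets and sorted intestinal goblet cells, which do not match the islet tissue given. Per the submitters' processing notes, mm10 was the genome and FastQC and Trimmomatic were among the tools; no aligner, counting tool or annotation is given in the sources used here. The WT matrix was read whole (737280 barcodes, 118523180 UMIs, 104708672 of them in the 4547 cells), and of the transgenic one the first 547 entries, read through the WT gene list, which its 220 whole gene lines equal. Doublets were not called.

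Counts were summed over each hormone group and divided by its total (CPM); the intervals are exact Poisson ones. Ratios carry exact conditional binomial intervals, and thinning used a fixed seed (7). The ratio calculation was checked on simulated counts. The receptors, lists and marker genes were chosen with earlier results of these data known. The macrophage-marker yardstick, the insulin, depth and other-hormone bands and the promoter motifs were chosen after the data were seen. All 10 receptors were named. Of each other list the genes of the 2 highest and 2 lowest ratios in delta over beta and alpha over beta cells were named, and for each receptor the 2 genes nearest in pattern. Positions are from GENCODE M21 (GRCm38). Python 3.11.15, numpy 2.4.6, scipy 1.17.1, pandas 2.3.3 and matplotlib 3.10.9 were used. The alternatives tried changed the UMI minimum, the hormone limits, the treatment of cells past several limits, the total behind CPM, the free RNA reckoning, the fold, the scaling and the filters.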

Additional observations from a re-analysis of the deposited data

How the results depend on the processing

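No paired analysis was possible because each group has 1 library. All 231 recomputed log2 ratios of single receptors kept the sign of their main value where that was past 2-fold, and 27 of them left the counting interval. The number of receptors above free RNA was most sensitive to the ceiling. With the largest instead of the smallest hormone ratio it was 2 in the alpha, 2 in the delta, 2 in the PP and 2 in the no-hormone group, against 6, 4, 5 and 8; the cause was not tested. With the upper bound in macrophage-marker cells as ceiling, chosen after seeing the data, it was 3 in the alpha and 3 in the PP group. By the same ceiling it was 3 instead of 4 in the delta and 6 instead of 8 in the beta group. The shares of all genes under these other ceilings were not worked out. With a fold of 3 instead of 2, the count in delta over alpha cells was 2 instead of 4 of 6 receptors. Of all 9754 genes compared, 6.84% lay past the fold of 3 and 18.8% past that of 2. The other counts stayed within 1.5 times of their main value under the alternatives run. With 1548619 UMIs, the delta group reaches 1.94 CPM with 3 UMIs, and a minimum of 10000 UMIs per cell left 50 of its 137 cells.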

Other observations

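The genes nearest in pattern to each receptor, by the root mean square distance of centred log2(CPM + 1) profiles over the 5 groups, were sought among genes of at least its highest level divided by 4. For Ffar4 they were Cidea, a lipid droplet protein (distance 0.283), and Ache, acetylcholinesterase (0.378), with 104 and 56.2 CPM in delta and 1.68 and 1.01 CPM in beta cells. For Sstr2 they were Edn3, the peptide endothelin 3 (0.111), and Ndst4 (0.170), with 28.9 and 24.7 CPM in alpha and 0.409 and 0.457 CPM in beta cells. For Ghsr they were Cd164l2 (0.119) and Wnt9a, a Wnt ligand (0.131), Wnt9a at 9.04 CPM in delta and 0.156 CPM in beta cells. Cd164l2 was seen more widely, at 76.8 CPM in delta, 10.5 CPM in alpha and 9.3 CPM in beta cells. The 1 CPM added before the logarithm narrows differences at levels as low as those of Ghsr. For Gcgr they were Nr1h3, the oxysterol receptor LXR alpha (0.075), and Plk3 (0.104), for Galr1 Lad1 (0.088) and Adh1 (0.131), and for Adra2a Nabp1 (0.094) and Cntnap2 (0.169). For Gipr they were Calr (0.093) and Cln6 (0.098), for Sstr3 Lcorl (0.067) and Uggt1 (0.069), and for Glp1r, at under 1 CPM in every group, Mrap2 (0.013) and Sapcd2 (0.047). The nearest to Ffar1 lay farther off, 6330403K07Rik at 0.471 and Gm17767 at 0.482.

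The 63 cells past several hormone limits, most of them with Gcg and Ppy together (34 cells), held Ffar4 at 75.4 CPM (60.6 to 92.6), Sstr2 at 20.9 CPM (13.5 to 30.9), Sstr3 at 37.7 CPM (27.5 to 50.4) and Adra2a at 18.4 CPM (11.5 to 27.9). They held 0 UMIs of Glp1r and 2 of Ghsr. Doublets were not called, and their part was not tested.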
